A study of Caenorhabditis elegans with 2 samples.

Results

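The genes examined were 10 genes of Wnt signalling and of asymmetric cell division in Caenorhabditis elegans, chosen by name from the 19973 protein-coding genes on the 6 nuclear chromosomes. The choice was made with earlier results of these data known. The 10 genes comprised 2 acting outside or at the surface of the receiving cell, egl-20 and lin-17, and 8 intracellular components, mig-5, pry-1, apr-1, bar-1, wrm-1, sys-1, pop-1 and lit-1. The data were chromatin immunoprecipitation followed by sequencing (ChIP-seq) for PAX-3, a paired box transcription factor, in 1 group of 2 biological replicates. Both replicates were pools of whole mixed-sex L1 larvae of strain OP190, starved after bleaching and aged 6 h, which carried the mutation unc-119(ed3) and the transgene wgIs190. This transgene encodes PAX-3 with a GFP-FLAG tag at its C terminus, and the precipitation used an antibody against GFP according to the samples' description, although their antibody label reads pax-3. Neither a second condition nor a ChIP of a different protein was included, so PAX-3 sites cannot be told apart from sites common to many ChIP targets. Whole larvae were used, so the cells that gave a peak cannot be told apart.

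Wnt ligands are secreted proteins that bind Frizzled receptors, and Dishevelled proteins relay the signal inside the cell. A destruction complex built on Axin and APC limits the level of beta-catenin, which with a TCF factor controls transcription. In C. elegans the beta-catenin BAR-1 acts in a pathway of this kind. In asymmetric divisions, among them those of the epidermal seam cells of larvae, the beta-catenin WRM-1 and the Nemo-like kinase LIT-1 lower the nuclear level of the TCF factor POP-1 in one daughter, where the beta-catenin SYS-1 acts as a coactivator of POP-1.

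The deposited peak lists were a list thresholded by irreproducible discovery rate (IDR), with 2139 peaks, and relaxed lists of 30000 peaks each for the pooled data and for each replicate. The relaxed lists are meant to include background and have no IDR threshold, but each ends at 30000 peaks. Their lowest signals were 40.04 (pooled), 22.61 (replicate 1) and 21.99 (replicate 2), so a summit absent from a list may lie below its cut. Each peak has a summit and a signal, which is the authors' own value and was compared only within a list. The IDR peaks are also the 2139 strongest peaks of the pooled list, with a lowest signal of 116.9 and a median of 178.5. All coordinates are in build ce11. Promoter windows covered the 1000 bp before and the 200 bp after a gene's annotated start, and negative distances are upstream of it. The depth is unknown because the lists hold no read counts. The tagged gene itself, pax-3, had no IDR summit in its promoter window or gene body.

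Of the 10 genes, 4 had at least 1 IDR peak, and there were 5 such peaks in all. Those of mig-5 and wrm-1 lay upstream of the gene, and those of lit-1 (2 peaks) and lin-17 lay in introns. The sequences of 300 bases centred on 4 of these summits are shown because these are the sites on which the results turn. They come from the RefSeq copy of the WBcel235 assembly, which is build ce11, and run 5′ to 3′ on the strand of the gene. Capitals mark matches to the motifs described further on: CTTTGAT at wrm-1, GTCACG, read on the other strand as CGTGAC, in the first lit-1 sequence, and TAATTA in the second. The mig-5 sequence spans chrII:8185056-8185355 (minus strand), that of wrm-1 chrIII:5721919-5722218 (plus strand), and those of lit-1 chrIII:13716269-13716568 and chrIII:13718664-13718963 (plus strand).
mig-5, summit at −183 bp: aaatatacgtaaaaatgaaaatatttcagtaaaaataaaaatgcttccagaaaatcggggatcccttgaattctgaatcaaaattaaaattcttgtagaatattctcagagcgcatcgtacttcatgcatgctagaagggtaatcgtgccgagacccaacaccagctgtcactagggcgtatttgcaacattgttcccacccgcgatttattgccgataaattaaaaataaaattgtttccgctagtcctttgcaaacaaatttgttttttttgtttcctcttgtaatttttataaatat
wrm-1, summit at −781 bp: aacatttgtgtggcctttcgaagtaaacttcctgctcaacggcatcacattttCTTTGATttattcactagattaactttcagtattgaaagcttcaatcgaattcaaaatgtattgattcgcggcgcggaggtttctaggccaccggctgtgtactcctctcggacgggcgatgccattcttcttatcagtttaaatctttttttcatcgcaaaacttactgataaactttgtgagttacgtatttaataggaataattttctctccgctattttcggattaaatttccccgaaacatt
lit-1, summit at 14428 bp: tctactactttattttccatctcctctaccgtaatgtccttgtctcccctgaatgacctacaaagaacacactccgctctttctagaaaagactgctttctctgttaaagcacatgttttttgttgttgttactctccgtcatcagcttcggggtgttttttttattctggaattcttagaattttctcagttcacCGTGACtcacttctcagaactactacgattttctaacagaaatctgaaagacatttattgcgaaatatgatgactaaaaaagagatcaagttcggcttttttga
lit-1, summit at 16823 bp: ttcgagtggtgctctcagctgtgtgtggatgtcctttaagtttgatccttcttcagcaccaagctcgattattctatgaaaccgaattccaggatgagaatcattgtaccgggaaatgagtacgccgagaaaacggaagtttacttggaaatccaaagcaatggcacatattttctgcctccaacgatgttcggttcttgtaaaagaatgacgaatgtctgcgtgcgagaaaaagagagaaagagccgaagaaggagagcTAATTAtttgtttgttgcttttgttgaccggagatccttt

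The first question was how many of the genes had peaks, by position, beside all protein-coding genes. With the IDR list, 2 of the 10 genes, mig-5 and wrm-1, had a summit in the promoter window, where 6.99% of all protein-coding genes did. A summit in the gene body was found in 2 of the 10, lin-17 and lit-1, against 2.66% of all genes, and longer genes have more room for one. By nearest start, 4 of the 10 genes had an IDR summit (lin-17, mig-5, wrm-1 and lit-1), against 8.84%. These are counts over few genes that were chosen with earlier results of these data known, and no test was made over them. A count above the all-gene share is therefore no independent result about the pathway. In the pooled relaxed list 6 of 10 had a promoter summit against 36.7% of all genes, and the strongest such signal had a median of 59.7 over these 6 genes and 60.2 over the 7338 genes with one. The replicate 1 list gave 4 of 10 (36.7% of all genes) and the replicate 2 list 6 of 10 (37.5%). Body summits in the relaxed lists were found in 8 of 10 genes in the pooled data (49.3% of all genes), 8 in replicate 1 (49.6%) and 6 in replicate 2 (49.7%). By nearest start the relaxed counts were 10 of 10 in the pooled list (66.7% of all genes), 10 in replicate 1 (66.7%) and 9 in replicate 2 (67.5%), so nearly every one of the 10 had a relaxed summit nearest to it.

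**Figure D1:**
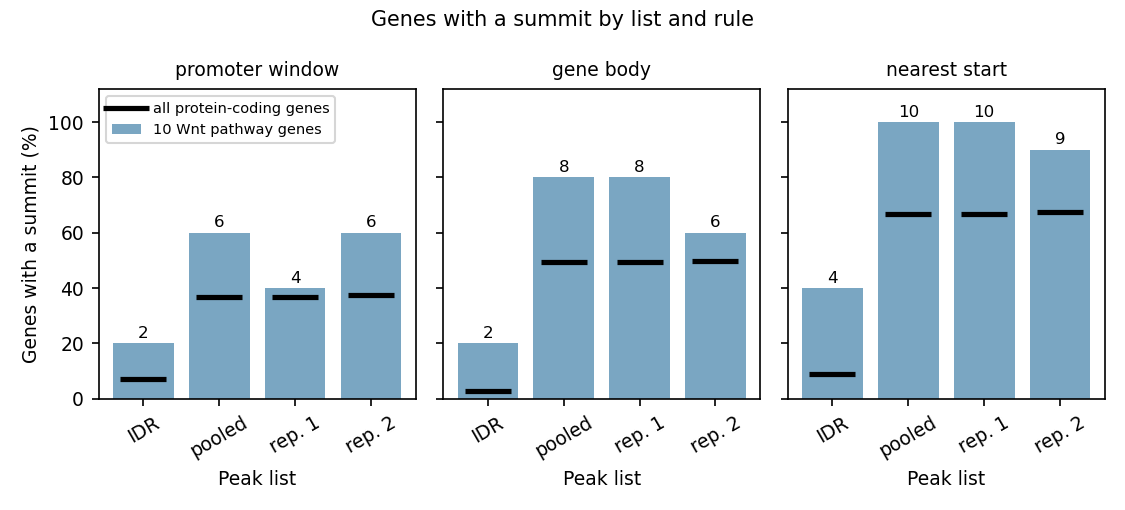
Share of genes with a summit (vertical axis, percent) in each peak list (horizontal axis) by promoter window, gene body and nearest start. Bars are the 10 Wnt pathway genes, with their number above each bar, and black dashes are all 19973 protein-coding genes; in the promoter window the IDR list gave 2 of 10 genes beside 6.99%.

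Most of the 10 genes had no relaxed promoter summit shared by both replicates, and neither did most protein-coding genes. A promoter summit was listed in at least 1 replicate for 8 of the 10 genes, against 51.1% of all genes. A replicate 1 promoter summit with a replicate 2 summit within 100 bp was found for 2 of the 10, again mig-5 and wrm-1, against 17.2% of all genes. The other 6 genes with a relaxed promoter summit had it in 1 replicate's list only, and lin-17 and bar-1 had none in either.

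**Figure D2:**
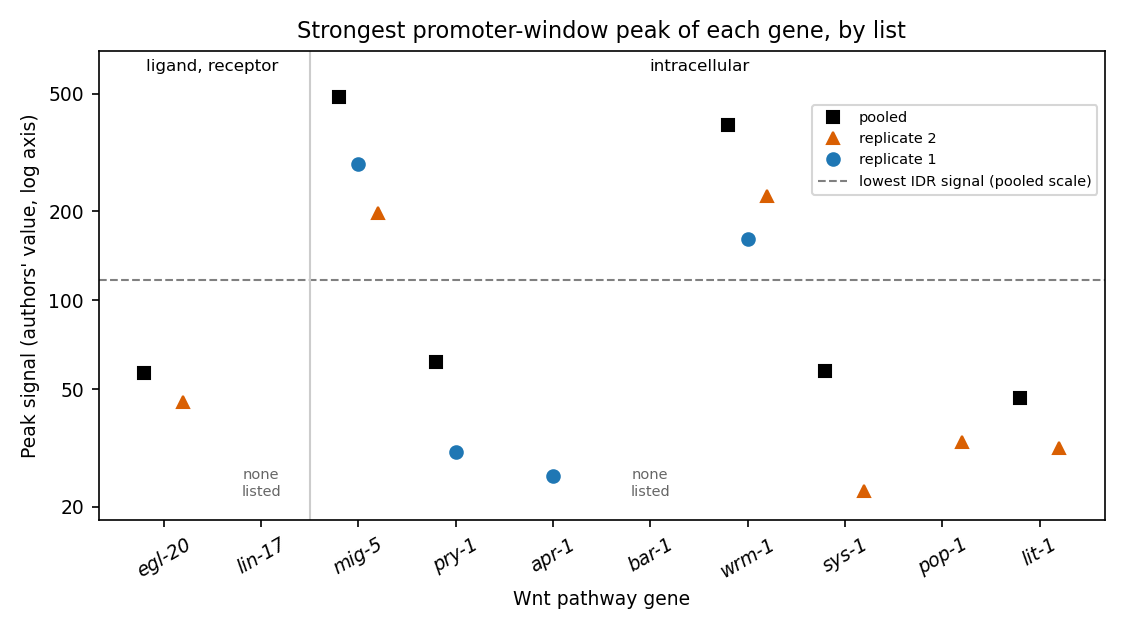
Signal of the strongest peak in the promoter window of each gene (vertical log axis, the authors' value) in the pooled (squares), replicate 1 (circles) and replicate 2 (triangles) lists. The mig-5 and wrm-1 points stand above all others, in each list, and the dashed line is the lowest IDR signal, 116.9, which applies to the pooled squares.

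Among the intracellular components, the strongest peak lay upstream of mig-5 (WBGene00003241, chromosome II 8182323 to 8185023, minus strand), which encodes a Dishevelled protein. Its signal was 486.3 in the pooled and IDR lists, 290.3 in replicate 1 and 198.4 in replicate 2. In all lists it was high, at rank 190 of the IDR list, 132 of the replicate 1 list and 278 of the replicate 2 list. The summit was at −183 bp in the pooled list, −185 bp in replicate 1 and −184 bp in replicate 2, so the position was the same to within a few bases. The pooled peak spanned chromosome II 8185109 to 8185297, a width of 189 bp, where the usual width in the IDR list was 424 bp. Its signal ranked 208 among the 1397 genes with an IDR promoter summit, whose median was 213.1. The gene body held 1 further pooled summit, at 1942 bp, of signal 64.8, which was listed at 32.01 in replicate 1 and 35.03 in replicate 2.

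The mig-5 peak did not belong to mig-5 alone. The 419 bp between mig-5 and the divergent gene cct-1 (WBGene00000377), which encodes a subunit of the cytosolic chaperonin that folds actin and tubulin, held the summit. It was at −237 bp from the start of cct-1 and thus nearly as near to that gene as to mig-5. Which of these genes the peak serves cannot be told apart here. Such sharing was frequent, since 355 of the 1072 IDR summits in promoter windows lay in those of 2 or more genes. With only the summits in the window of 1 gene, wrm-1 was the one member left, beside 3.42% of all genes.

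The peak upstream of wrm-1 (WBGene00006943, chromosome III 5722850 to 5727115, plus strand), which encodes the beta-catenin of asymmetric divisions, lay in the window of no other protein-coding or noncoding gene. Its signal was 392.5 in the pooled and IDR lists, 161.5 in replicate 1 and 224.8 in replicate 2. Here replicate 2 was the higher one, at rank 219 against rank 443 in replicate 1, while at mig-5 replicate 1 was the higher. The summit was at −781 bp in the pooled list, −786 bp in replicate 1 and −782 bp in replicate 2. The peak spanned chromosome III 5722005 to 5722136, a width of 132 bp, and lay in the 5263 bp between wrm-1 and its upstream neighbour arf-1. Its signal ranked 324 among the 1397 genes with an IDR promoter summit. A shorter window of 500 bp upstream and 100 bp downstream did not reach it. The widths of the mig-5 and wrm-1 peaks placed both among the 298 IDR peaks narrower than 424 bp, which had a median signal of 522.5 against 164.4 for the 1841 others.

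Genes that share a member's summit, such as cct-1, were left out of the next comparison. The genes with the most similar promoter signals over the IDR, replicate 1 and replicate 2 lists were sought among 1389 genes with a promoter summit in all of them, by distance in log2 signal. For mig-5 these were Y54G11A.2 (496.1, 293.9 and 201.2 in these lists, distance 0.04) and the chemoreceptor gene srh-16 (486.0, 275.8 and 209.1, distance 0.11). For wrm-1 they were imb-3, an importin beta gene (411.1, 168.6 and 229.2, distance 0.095), and Y75B8A.24 (373.3, 158.6 and 210.4, distance 0.12).

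The other beta-catenin genes had no IDR peak near their start. At bar-1 (WBGene00000238, chromosome X 7166005 to 7170625, minus strand), the beta-catenin gene of the canonical pathway, no summit was listed in the promoter window or gene body in any of the 4 lists, as in 19.8% of all protein-coding genes. The closest pooled summit was at −2156 bp, of signal 60.0, with a second at −2371 bp of signal 55.3. The replicate 1 list had 1 summit near these, at −2376 bp (25.3), and the replicate 2 list had summits at −2092 bp (46.5) and −2325 bp (32.0). The closest IDR summit was at −11155 bp, of signal 261.4, nearer to the start of F43E12.1.

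At sys-1 (WBGene00006379, chromosome I 9980063 to 9984794, minus strand) the relaxed lists held weak summits at the far edge of the window. The pooled list had 1 at −926 bp inside it (57.6) and 1 at −1127 bp outside it (49.9). In replicate 1 a summit lay only outside, at −1119 bp (43.2), and in replicate 2 one lay inside at −910 bp (22.6). Those of the pooled list were below the lowest IDR signal, and no summit of any list fell in the gene body. A strong IDR peak of signal 606.5 lay 149 bp past the 3′ end of sys-1, but its summit was at −252 bp from the start of eif-3.C, which encodes a translation initiation factor subunit.

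The kinase gene lit-1 (WBGene00003048, chromosome III 13701991 to 13724404, plus strand) carried its peaks inside the gene. It was the longest of the 10, at 22.41 kb, with 7 annotated transcripts that start at 7 different positions. The stronger IDR peak had its summit at 14428 bp (chromosome III 13716207 to 13716630), with a signal of 209.6 in the pooled list, 114.0 in replicate 1 and 105.9 in replicate 2. The other lay at 16823 bp (chromosome III 13718602 to 13719025), with signals of 179.4, 106.7 and 70.5. Both were in introns. The first had similar ranks in the replicates, 792 and 773, while the second was higher in replicate 1, at rank 894 against 1574 in replicate 2.

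Alternative starts of lit-1 lay close to these peaks. The summit at 16823 bp was at −582 bp from the start of 1 internal transcript and 455 bp downstream of another. With any transcript start in place of the gene start, 3 genes, with lit-1 added, had a promoter summit, beside 7.57% of all genes. The summit at 14428 bp was at −1546 bp from the nearest later transcript start and in no transcript's promoter window. By the nearest gene start the summit at 16823 bp went to W06F12.2, although it lies inside lit-1. In the promoter window of the gene start itself lit-1 had only a pooled summit of signal 46.8 at −559 bp and a replicate 2 summit of 31.7 at −589 bp.

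The lit-1 body also held many weaker summits. There were 15 in the pooled list, or 0.669 per kb, where all protein-coding gene bodies together held 0.295 per kb. The density was higher in egl-20, at 0.945 per kb, and was 0.562 in lin-17, 0.459 in pry-1 and 0.37 in mig-5. It was lower than 0.295 per kb in wrm-1 (0.234), apr-1 (0.184), pop-1 (0.124), sys-1 (0) and bar-1 (0). Of the 15 in lit-1, 8 were matched within 100 bp in both replicates, 1 in replicate 1 only, 3 in replicate 2 only and 3 in neither. Introns held 12 and coding exons 3, and 10 of the 15 lay past the midpoint of the gene. Just below the IDR limit of 116.9 were those at 10976 bp (108.5, with 44.6 in replicate 1 and 62.5 in replicate 2), 15698 bp (101.9, with 73.6 and 37.3) and 19319 bp (97.3, with 36.8 and 53.7).

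**Figure D3:**
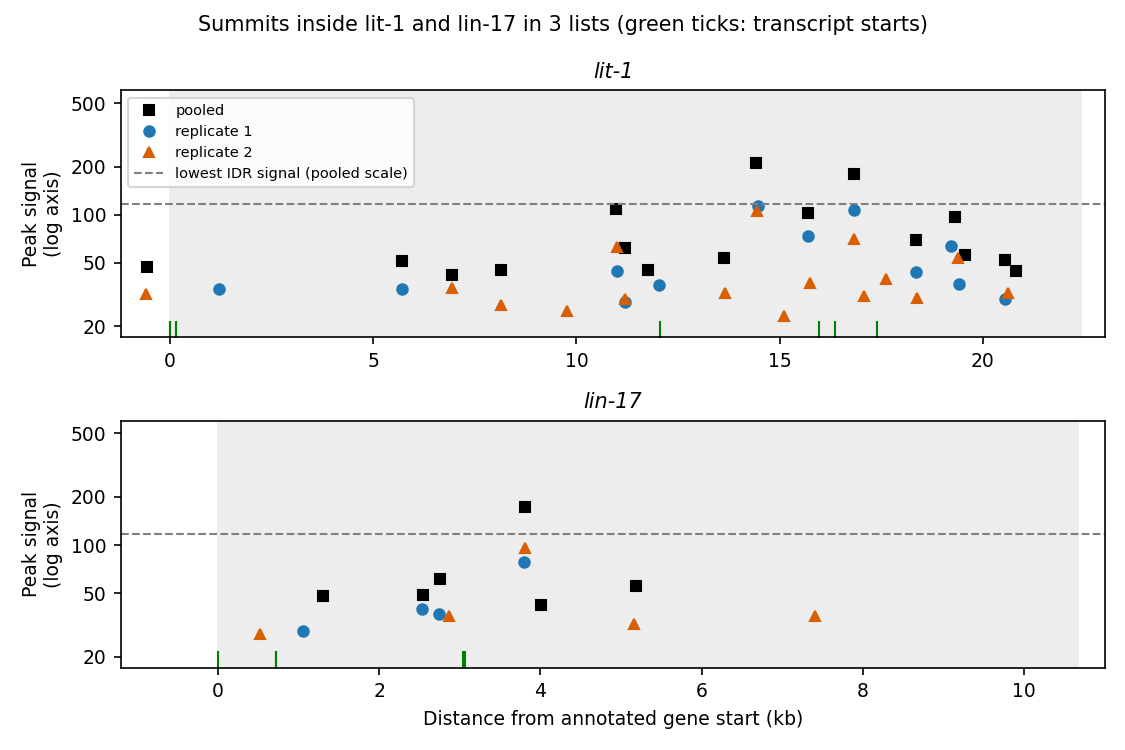
Summits inside lit-1 (top) and lin-17 (bottom) by distance from the gene start in kb (horizontal axis) and signal (vertical log axis, the authors' value) in the pooled, replicate 1 and replicate 2 lists. Grey shading is the gene body, green ticks are annotated transcript starts and the dashed line is the lowest IDR signal, which applies to the pooled squares; 2 pooled squares in lit-1 and 1 in lin-17 lie above it.

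The TCF gene pop-1 (WBGene00004077, chromosome I 2822243 to 2830311, minus strand), the nuclear end of the pathway, had no IDR or pooled summit in its promoter window. Replicate 2 listed 1 there, at −97 bp, of signal 33.1, and replicate 1 listed none. Further upstream, in the 15547 bp before the neighbouring gene ccb-2, the pooled list had 5 summits with pop-1 as the nearest start, at signals from 41.7 to 62.1. The closest, at −1278 bp (62.1), was matched at −1256 bp in replicate 1 (31.4) and at −1316 bp in replicate 2 (30.8). The closest IDR summit was at −33836 bp and nearer to another gene.

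The destruction complex genes had weak summits only. At pry-1 (WBGene00004202, chromosome I 14172828 to 14179360, minus strand), which encodes an Axin-like protein, the promoter summit at −738 bp had a signal of 61.8 in the pooled list and 30.7 in replicate 1 and was absent from replicate 2. Its strongest body summit, in a coding exon at 5288 bp, had 83.3 in the pooled list, 43.4 in replicate 1, where the summit lay in an intron at 5200 bp, and 38.9 in replicate 2. At apr-1 (WBGene00000156, chromosome I 8050037 to 8055475, plus strand), which encodes an APC-like protein, the promoter window held a summit in replicate 1 only, at −717 bp (25.4). A coding exon summit at 2489 bp had 44.0 in the pooled list, 24.2 in replicate 1 and 23.7 in replicate 2. The closest IDR summits were 66021 bp from the start of pry-1, at the promoter of dnj-29, and at −25304 bp from that of apr-1, at the promoter of cyc-1.

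The Wnt ligand gene egl-20 (WBGene00001188, chromosome IV 9812357 to 9815532, minus strand), which acts from the posterior of the larva in migration of the Q neuroblasts, had no IDR summit in its window or body. Its promoter summit at −745 bp had a pooled signal of 56.6 and was listed in replicate 2 at −732 bp (45.4), at rank 4043, but not in replicate 1. The gene body held 3 pooled summits, of signals 40.8 to 66.4. Of these, 2 were matched in both replicates, in a coding exon at 1847 bp and in the 3′ untranslated region at 2979 bp. The closest IDR summit, of signal 120.8, lay inside dct-15 and beyond the 3′ end of egl-20.

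The Frizzled receptor gene lin-17 (WBGene00003006, chromosome I 2706883 to 2717549, plus strand) had 1 IDR peak, in an intron, with its summit at 3810 bp (chromosome I 2710481 to 2710904). Its signal was 173.6 in the pooled list, 78.3 in replicate 1 and 95.8 in replicate 2, at ranks 1119, 1494 and 933. It lay just below the IDR median of 178.5, and the summit was at 3801 bp in replicate 1 and 3813 bp in replicate 2. The nearest transcript start was 740 bp upstream of the summit, so the peak was in no transcript's promoter window. No list had a summit in the promoter window of the gene start. The body held 5 further pooled summits, of signals 42.1 to 61.3, and none of these was matched in both replicates.

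**Figure D4:**
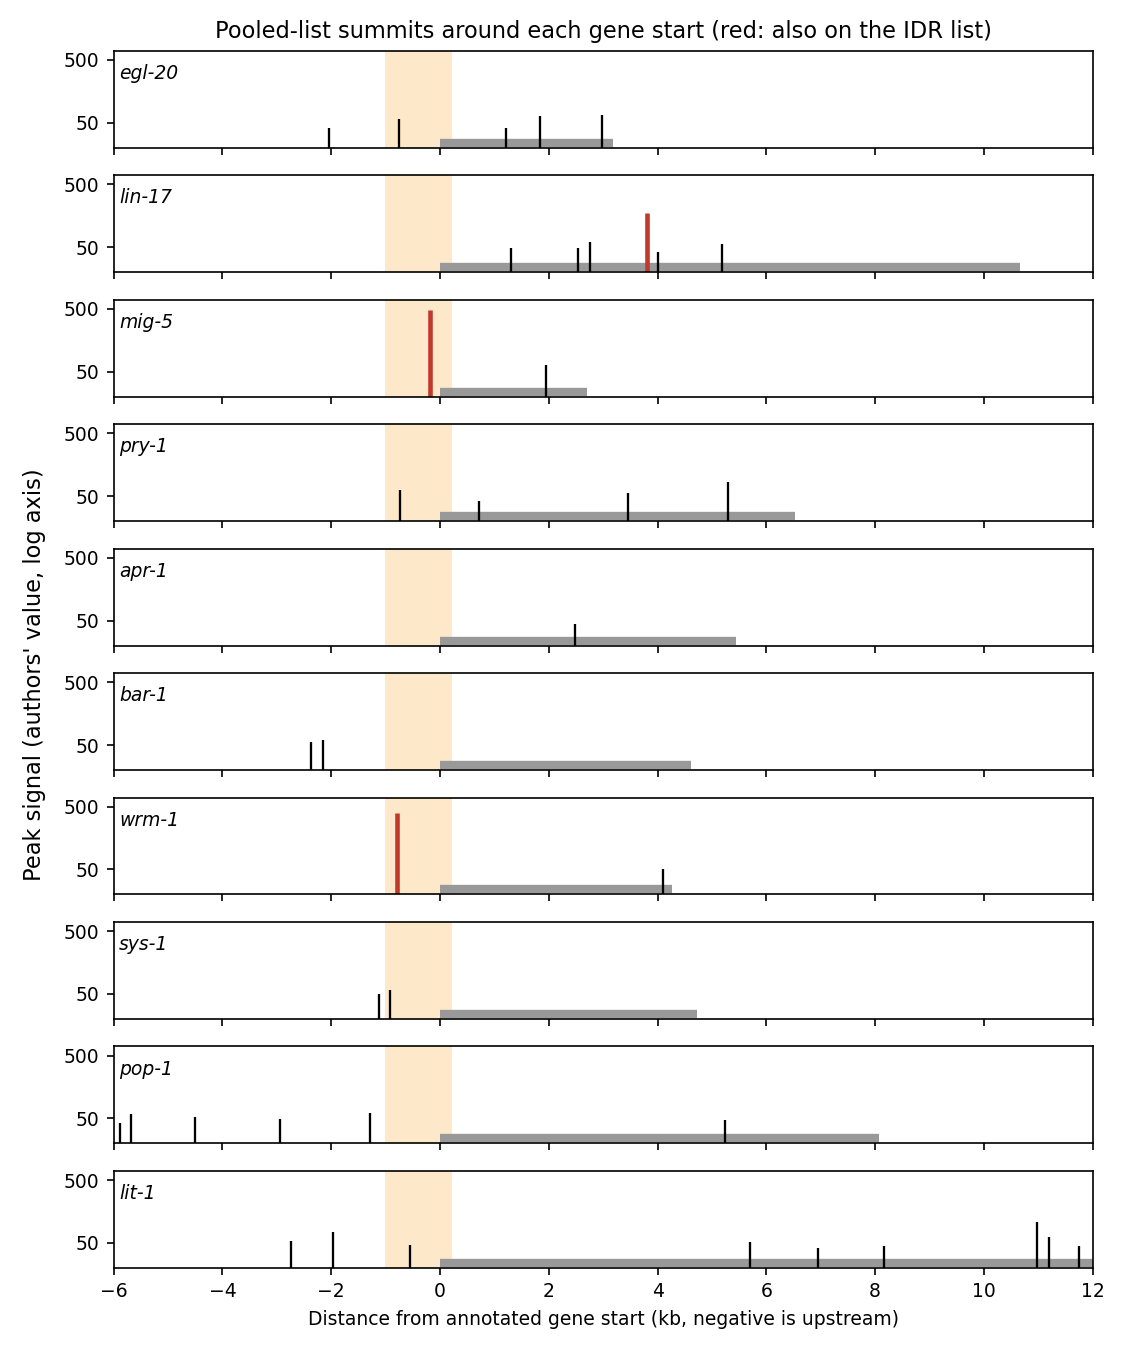
Pooled-list summits that lie in the promoter window or body of each gene or have it as the nearest start, by distance from the gene start in kb (horizontal axis, to 12 kb) and signal (height, log axis). The shaded band is the promoter window, the grey bar the gene body and red marks summits on the IDR list; red stands in the band for mig-5 and wrm-1 and inside the gene for lin-17, while both lit-1 IDR summits lie beyond the plotted range.

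All 5 IDR peaks of these genes were matched within 100 bp in the 2139 highest peaks of each replicate, as were 68% of all IDR peaks. The promoter peaks of mig-5 and wrm-1 ranked above the intronic ones of lit-1 and lin-17 in the IDR list and in each replicate list.

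**Figure D5:**
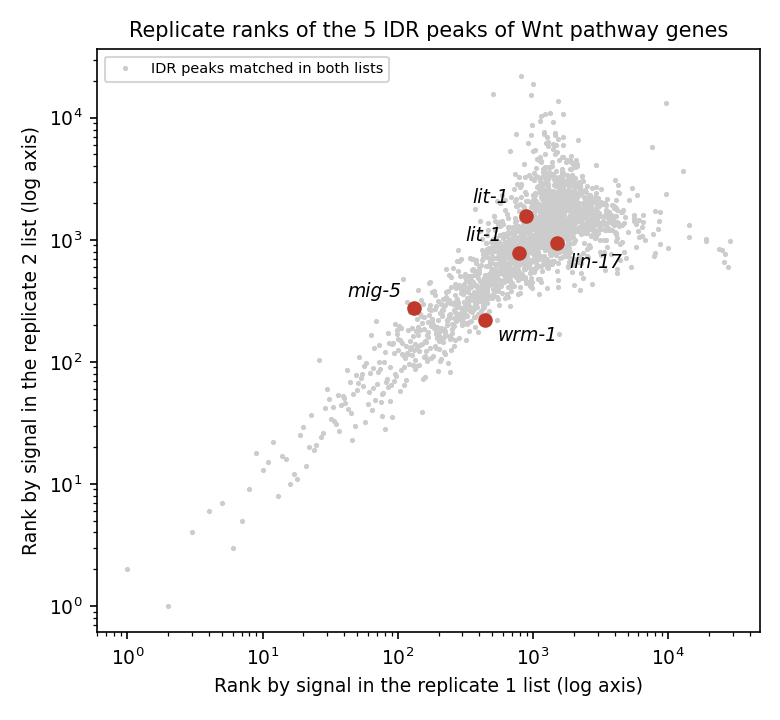
Rank by signal in the replicate 1 list (horizontal log axis) and the replicate 2 list (vertical log axis) of the 2016 IDR peaks matched in both lists (grey) and of the 5 peaks of the Wnt pathway genes (red). The 5 red points lie within the cloud, with mig-5 at ranks 132 and 278 and wrm-1 at 443 and 219.

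The second question was how ligand and receptor genes compared with intracellular components. An IDR promoter summit was present in 0 of the 2 ligand and receptor genes and in 2 of the 8 intracellular genes, beside 6.99% of all genes. An IDR summit in the gene body was present in 1 of 2, lin-17, and in 1 of 8, lit-1, beside 2.66%. By nearest start the counts were 1 of 2 and 3 of 8, beside 8.84%. In the pooled relaxed list 1 of 2 and 5 of 8 had a promoter summit, beside 36.7%. With 2 genes on one side these counts do not separate the classes, and a wider list of 44 pathway genes, which includes the 10, was counted in the same way. Among its 11 ligand and receptor genes 0 had an IDR promoter summit and 1 a body summit, and among its 16 intracellular genes 2 and 1 did. All of these were again members of the 10 (lin-17, mig-5, wrm-1 and lit-1), so the added genes gave no further support. The nearest-start counts were 1 of 11 and 4 of 16, beside 8.84%, and kin-19 was the only gene among them outside the 10. At all-gene shares of 6.99% and 2.66%, counts of 0 or 1 among so few genes are near the background. In the pooled relaxed list the promoter counts were 5 of 11 and 8 of 16, beside 36.7% of all genes, in the replicate 1 list 2 of 11 and 8 of 16, and in the replicate 2 list 3 of 11 and 9 of 16. The difference between the classes was not tested.

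Across the 44 genes 3 had an IDR promoter summit, beside 6.99% of all genes, 3 had a body summit, beside 2.66%, and 6 were the nearest start of one, beside 8.84%. Of the 34 genes outside the 10, 1 had an IDR promoter summit, 1 a body summit (mom-1) and 2 were the nearest start of one (sfrp-1 and kin-19). Most of the counts over the 44 therefore came from the 10. The gene called by promoter was snx-3, which encodes a sorting nexin of the retromer pathway that recycles the Wnt carrier. Its summit at −386 bp (171.4 in the pooled list, 69.1 in replicate 1 and 96.2 in replicate 2) was at −290 bp from the divergent gene rad-54.L and nearer to that gene. The strongest peak on the list lay in an intron of mom-1, which encodes a Porcupine-like enzyme needed for Wnt secretion, at 3474 bp. Its signal was 665.9 in the pooled list, 332.9 in replicate 1 and 333.8 in replicate 2, at rank 88 of the IDR list. The gene whose start was nearest to it was cest-16, at −3356 bp.

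Peaks just outside the window were found at 2 further genes. The summit near kin-19, a casein kinase gene whose relatives phosphorylate beta-catenin, was at −1172 bp (164.1 in the pooled list, 72.7 in replicate 1 and 84.6 in replicate 2). That near sfrp-1, which encodes a secreted Frizzled-related Wnt antagonist, was at −1092 bp (123.5, 71.3 and 57.0), and it was outside the 2139 highest peaks of replicate 2, at rank 2398. It also lay in the windows of the piRNA genes 21ur-11310, 21ur-11774 and 21ur-7248. No IDR summit fell in the promoter window or body, or had its nearest start, at any of the 5 Wnt ligand genes, the 3 planar polarity genes or the 7 listed target genes, which were mab-5, lin-39, egl-18, elt-6, ceh-22, psa-3 and end-1. With 6.99% of all genes called by promoter, 2.66% by body and 8.84% by nearest start, a count of 0 in classes of this size is near the background and is no result about them.

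The last question was whether the peak sequences held sites of the kind that paired box or TCF factors bind. The motifs, searched on both strands of 300 bases around each summit, were the paired domain core GTCACG, the homeodomain core TAATTA, the homeodomain dimer sites made of TAAT and ATTA with 2 or 3 bases between them, and the TCF core CTTTGAT. A dimer site can contain a TAATTA, depending on the bases between its parts, and is then counted under both motifs. Of the 5 peak sequences of the 10 genes, GTCACG occurred in 1, that of lit-1 at 14428 bp, starting 46 bp downstream of the summit, where 10% of the 2139 IDR sequences and 6.56% of the 30000 pooled relaxed ones held it. TAATTA occurred in 1, that of lit-1 at 16823 bp, 110 bp downstream of the summit, against 13.3% of IDR sequences. CTTTGAT occurred in 1, that of wrm-1, starting at −97 bp from the summit, against 5% of IDR sequences. Of the pooled relaxed sequences, 11.2% held TAATTA and 5.87% held CTTTGAT, so the TCF core was no more frequent in the IDR sequences. The mig-5 and lin-17 sequences held none of the 5 motifs, and neither dimer site (1.68% and 1.54% of IDR sequences) occurred in any of the 5 peaks.

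Over the whole promoter windows, GTCACG was found in 0 of the 10 genes and in 18.8% of the 19973 windows. CTTTGAT was found in 3 (apr-1, bar-1 and wrm-1) and in 21.8% of all windows, and TAATTA in 5 (egl-20, mig-5, apr-1, bar-1 and wrm-1) and in 47.3%. The dimer site with 3 bases between was found at apr-1 only among the 10, and in 6.89% of all windows, and that with 2 bases in 0 of 10 and 6.72%. The base composition of the 5 peaks ranged from 33.7% GC at mig-5 to 42.7% at the second lit-1 peak. Only the latter was above the IDR median of 39%.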

How the data were processed

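The samples were 2 biological replicates of 1 group, per the labels, with chromatin sonicated to 200 to 800 bp. The deposited files were narrowPeak lists on build ce11, per the authors' accompanying notes: 1 relaxed list per replicate, 1 for the pooled data, each called with a control, and 1 IDR list derived from them. The sources used here do not name the aligner, the peak caller or the IDR threshold. Peak signals are deposited by the authors in an unstated scale. The deposited −log10 q-value per peak was read and not used. Every IDR peak had the position and signal of one of the 2139 highest pooled peaks.

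Summits were assigned to genes of Ensembl release 115 (WBcel235) (pandas 2.3.3, numpy 2.4.6, Python 3.11.15), with figures from matplotlib 3.10.9. The counting was tested on simulated summits, where 200 of 200 planted promoter genes were recovered among 19973. Peaks were matched between lists within 100 bp. Sequences came from the RefSeq copy of the assembly.

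The 10 genes, the wider list of 44 and the motifs were chosen with earlier results of these data known. Named were the 10 genes, genes of the wider list with an IDR summit by any rule, genes that share such a summit or have the start nearest to it, the 2 genes most like each member with a promoter peak, and pax-3. Neighbours of closest IDR summits were named after their values were seen. No test was made, since there was 1 group and genes are not replicates. To leave out a replicate, the IDR list was replaced by equally many top peaks from the one kept. Other alternatives changed the window, gene start, peak position, peaks used, assignment and motif window.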

Additional observations from a re-analysis of the deposited data

How the results depend on the processing

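With the window of 500 bp upstream, 1 of the 10 genes had an IDR promoter summit (mig-5), beside 5.41% of all genes. This was 1 of the 8 intracellular genes. In the pooled relaxed list 1 of the 10 had a summit in that window, beside 23.5% of all genes. Summits in the window of 1 gene only, a rule chosen after seeing the data, were found for 3.42% of all genes. The counts were then 1 of 10, 1 of 8 and, on the wider list, 1 of 44 (wrm-1). The IDR peaks above the median signal left 1 gene with a body summit (lit-1), beside 1.23% of all genes. Pooled relaxed promoter summits matched in both replicates were left at 2 genes (mig-5 and wrm-1), beside 17.3% of all genes. With the window of 2000 bp the wider list had 5 promoter genes of 44, beside 9.2% of all genes. Any overlap of the peak also gave 5, beside 7.66%, and the additions in each case were sfrp-1 and kin-19. Without replicate 1 or 2 the IDR counts were those of the full data. All-gene shares were then 7.1% and 6.7% by promoter, 2.78% and 2.74% by body and 8.96% and 8.69% by nearest start. The pooled relaxed count was 6 without replicate 1, beside 37.5% of all genes, and 4 without replicate 2, beside 36.7%. With any transcript start lit-1 was added to make 3 promoter genes, beside 7.57% of all genes. By nearest start within 5000 bp lit-1 was lost, which left 3 of 10 beside 8.23%. It was also lost when noncoding genes were included, which left 3 of 10 beside 6.24%. The ligand and receptor promoter count was 0 of 2 throughout, which says nothing about stability. In windows of 100 bases no peak of the 10 genes held the paired domain, homeodomain or TCF core. Of all IDR sequences of that length, 5.33%, 2.99% and 1.31% did. No paired analysis was possible because there was 1 group. The lists hold no read counts, so what depth limits cannot be given, and a gene with no listed summit may have signal below the cut of the list.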
